A study of Homo sapiens with 24 samples.

Results

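The 19p12 zinc-finger cluster is a run of neighbouring KRAB zinc-finger genes (KRAB-ZNFs) on the short arm of human chromosome 19. It was followed here through a set of microRNA (miRNA) transfections in T-47D cells, an estrogen receptor (ER)-positive breast cancer line. The members were 34 listed gene symbols, of which 33 had a row in the deposited count tables. A member also had to reach a mean level of 0.5 CPM (counts scaled to library size) over all 24 libraries, which left 30 of the 26364 genes. ZNF66 was not analysed here, and ZNF208, ZNF257 and ZNF728 fell below the limit with means of 0.0557, 0.025 and 0.0236 CPM. The lowest member just inside it was ZNF714 at 1.23 CPM, so limits of 0.1 and 1 CPM kept the same number of genes.

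The cells carried WT ER or, heterozygously at the endogenous ESR1 locus, the D538G or the Y537S mutation, with 2 clones of each genotype. All were kept in hormone-deprived medium, transfected with a mimic or an inhibitor at 10 nM, and harvested 24 h later for poly-A RNA-seq. Mimics supply extra copies of a miRNA as a synthetic duplex, whereas inhibitors bind and block the cell's own copies. Y537S cells received the mimic negative control, a miR-301b-3p mimic, a miR-331-3p mimic, the inhibitor negative control or a let-7f-5p inhibitor. WT ER cells received the mimic negative control or 1 of the mimics miR-181c-5p, miR-301b-3p and miR-331-3p, and D538G cells received the mimic negative control, miR-181c-5p or miR-301b-3p. Each of these 12 conditions had 1 library per clone. The replicates are therefore 2 clones, a genotype rests on 2 clones, and the estimates of spread are for these clones only.

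KRAB-ZNF proteins bind DNA through tandem C2H2 zinc fingers and recruit the corepressor TRIM28, and through it histone methyltransferases, to silence transposable elements and other targets. Many of the 19p12 genes arose by tandem duplication in primates, so their finger exons resemble one another. ZNF91 and ZNF93 are the best known members, as repressors of SVA and LINE-1 elements respectively. miRNAs usually pair through their seed, bases 2 to 8, with sites in the 3′ UTR, and miR-181 is known as a miRNA that can also act on repeated sites inside zinc-finger coding sequence. For this reason miR-181c was compared with the other treatments below.

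The mature miRNAs are shown first because every site described below is the complement of their seeds, which are in capitals. The sequences are from RefSeq.
hsa-miR-181c-5p: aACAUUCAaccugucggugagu
hsa-miR-301b-3p: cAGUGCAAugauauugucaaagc
hsa-miR-331-3p: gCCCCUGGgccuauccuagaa
hsa-let-7f-5p: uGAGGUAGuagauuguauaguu
No pair of the 4 shares a seed. A 7-base match to miR-181c reads TGAATGT in the mRNA, and the 6-base match inside it reads GAATGT. Matches were sought on the sense strand of 1 transcript per gene.

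The 6-base match was a feature of the finger repeats of the cluster, whereas the 7-base match was not. The coding sequences of the 30 members held 405 matches of 6 bases, of which 382 (94.3%) were in the reading frame. Of the 375 gaps between neighbouring matches, 334 were multiples of 84 bases, the length of 1 finger with its linker. All 30 members had at least 1 such match and 25 had 10 or more, against 162 of 19038 genes with an annotated coding sequence, and 134 of those 162 genes had a ZNF symbol. The base before the match was A in 354 cases and T, which makes the 7-base match, in 22. ZNF14 held 10 of these 7-base matches and ZNF101 held 3, while 9 members had 1 and 19 had none. Thus 36.7% of the members had a 7-base match in coding sequence, against 12.8% of all genes with one annotated.

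A pair of finger repeats from each of 3 members shows the difference, with the matched bases in capitals. ZNF14 was chosen for its 7-base matches, ZNF91 as an abundant member with 6-base matches only, and ZNF253 as the member with the largest fall after miR-181c among those called in both genotypes. Coordinates are GRCh37 (hg19), and each window lies in coding sequence.
ZNF14, chr19:19823490-19823591, minus strand: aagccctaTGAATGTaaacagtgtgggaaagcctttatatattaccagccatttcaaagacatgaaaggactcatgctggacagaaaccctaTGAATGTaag
ZNF91, chr19:23545049-23545150, minus strand: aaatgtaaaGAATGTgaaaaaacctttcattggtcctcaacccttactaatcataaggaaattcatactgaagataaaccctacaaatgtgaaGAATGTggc
ZNF253, chr19:20002657-20002758, plus strand: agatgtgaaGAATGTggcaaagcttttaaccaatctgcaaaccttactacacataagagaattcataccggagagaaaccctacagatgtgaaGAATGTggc
In these windows ZNF14 carries 7-base matches and ZNF91 and ZNF253 carry 6-base matches, each pair 84 bases apart.

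A 7-base match lay in the 3′ UTR of 11 members and in none of the other 19. ZNF253 had 3, ZNF506, ZNF626, ZNF737 and ZNF431 had 2 each, and ZNF101, ZNF14, ZNF492, ZNF98, ZNF99 and ZNF714 had 1 each. Over all genes with an annotated coding sequence, 19.2% had such a match. Several of the cluster's sites looked like the finger repeat itself, as the first 3 of these 27-base windows show (GRCh37, seed match in capitals).
ZNF253, chr19:20003569-20003595, plus strand: agaaaccctaTGAATGTgatgaatgtg
ZNF253, chr19:20003578-20003604, plus strand: atgaatgtgaTGAATGTgggaaagcct
ZNF506, chr19:19905322-19905348, minus strand: agaaaccgtaTGAATGTgatgaatgtg
ZNF253, chr19:20005362-20005388, plus strand: gttgatgcttTGAATGTcttttggatg
The first 2 ZNF253 windows overlap. Counting coding sequence and 3′ UTR together, ZNF14 had 11 matches, ZNF101 and ZNF253 had 4 each and ZNF431 had 3, and no other member had more than 2. A 7-base match to miR-331 lay in the coding sequence of 1 member and in no 3′ UTR, where 13.9% of all genes have one. miR-301b had a match in the 3′ UTR of 6 of the 30 members (14.0% of all genes) and let-7f in that of 3 (9.7% of all genes), and neither had one in a member's coding sequence.

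**Figure D1:**
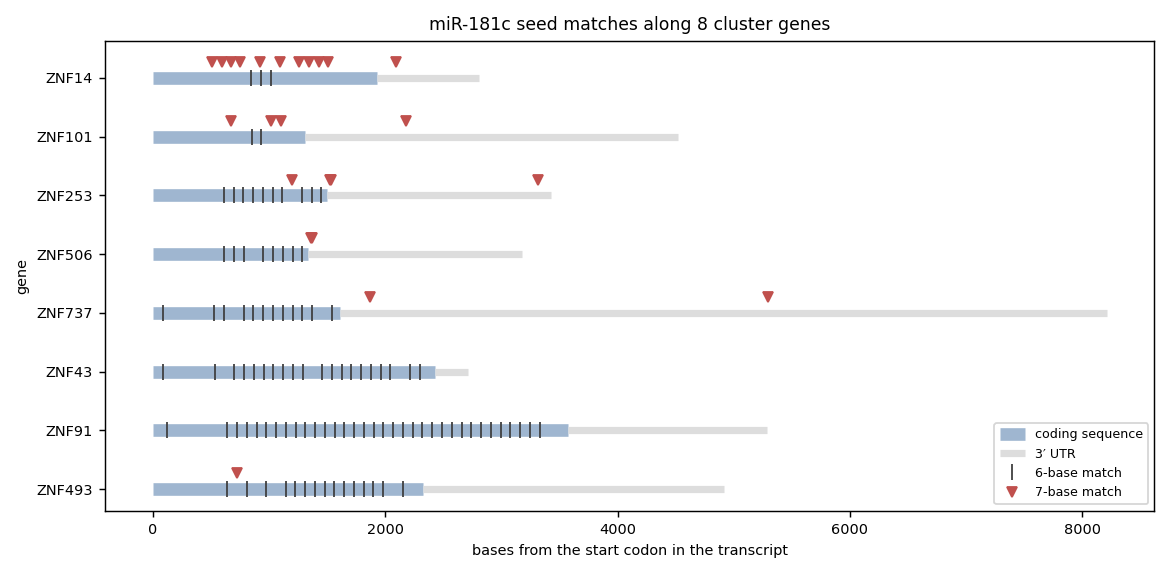
miR-181c seed matches along 8 cluster genes. The x axis is the distance in bases from the start codon along the transcript; thick bars are coding sequence and thin bars 3′ UTR, ticks are 6-base matches (coding sequence only) and triangles 7-base matches. The 10 coding matches of 7 bases in ZNF14 stand out from the evenly spaced 6-base matches of ZNF43 and ZNF91.

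The libraries held between 31379962 and 50526442 counts, and the 2 clones of each condition differed by more than counting noise. The luminal markers ESR1, GATA3, FOXA1, KRT8, KRT18 and KRT19 were all present, at 71.7 CPM or more in every library, while KRT5, KRT14, VIM, CDH2, PTPRC and PECAM1 ranged from 0.0 to 1.83 CPM. The cluster transcripts were poor in G and C, with a GC content of 33.2% to 45.0% and a median of 37%, against a median of 48.6% over all matched genes. GC content moved with several of the changes below, so counts and medians corrected for a GC trend in each library are given after each treatment's own, with corrected fold changes for the members whose call this ended.

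All 30 members were measurable, with no fewer than 12 counts in any library. Their summed normalized level ranged from 232 CPM (Y537S with miR-331, clone 1) to 528 CPM (WT negative control, clone D1). Per kilobase of transcript, ZNF43 had the highest mean level at 8.36 CPM per kb, followed by ZNF675 at 7.79, ZNF506 at 6.7 and ZNF91 at 6.12. ZNF714 and ZNF99 were lowest at 0.181 and 0.217 CPM per kb. Because these are bulk samples, fewer cells expressing a gene and less RNA per cell cannot be told apart. ZNF98 and ZNF492 are near copies: 55.2% of the 50-base words of ZNF98 and 30.7% of those of ZNF492 occur in another gene, so reads of these 2 genes may have been split or lost. In every other member this share was 8.68% or less, and in ZNF14 it was 0.0%.

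miR-181c lowered a part of the cluster in both genotypes in which it was tested. In WT ER cells 12 members fell and none rose, which is 40.0% of the members against 8.28% of all genes called lower (edgeR quasi-likelihood F-test, Benjamini-Hochberg adjusted p under 0.05 over all genes, here and below). In D538G cells 3 members fell and none rose, 10.0% against 3.95% of all genes. The median log2 fold change of the 30 members was -0.48 in WT ER cells and -0.38 in D538G cells, where the medians of all genes were 0.01 and 0.0. All 30 fold changes were below 0 in WT ER cells and 29 in D538G cells.

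ZNF253, a KRAB-ZNF near the distal end of the cluster, fell in both genotypes and was also lower in both direct comparisons with another mimic in WT ER cells described below, which held for no other member. Its normalized level was 25.6 and 24.2 CPM in WT control clones D1 and D4, and 13 and 11.1 CPM with miR-181c. In D538G clones A5 and C2 it was 17.4 and 21.2 CPM with the control and 13 and 9.53 CPM with miR-181c. The groups did not overlap in either genotype. The log2 fold change was -1.06 (SE 0.124, adjusted p = 0.000564) in WT ER cells and -0.76 (SE 0.175, adjusted p = 0.0267) in D538G cells.

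ZNF14, the member with the most coding 7-base matches, measured 19.9 and 19.3 CPM in the WT control clones and 10.9 and 10.8 CPM with miR-181c. In D538G cells it measured 15.8 and 13.2 CPM with the control against 11.1 and 8.87 CPM. Both D538G libraries with miR-181c lay below both controls, and in WT ER cells the gap was many times the difference between clones. The log2 fold change was -0.86 in WT ER cells (SE 0.124, adjusted p = 0.00179), while the value in D538G cells, -0.52 (SE 0.169), did not pass the test (adjusted p = 0.0813) until clone was a term in the model (-0.53, adjusted p = 0.000965).

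ZNF101, next to ZNF14 in the order of the members along the chromosome, measured 20.7 and 18.0 CPM in the WT controls and 13.2 and 12.6 CPM with miR-181c. The log2 fold change there was -0.60 (SE 0.129, adjusted p = 0.0122). In D538G cells its 19.4 and 21.5 CPM stood against 15.8 and 14.8 CPM, and the log2 fold change of -0.41 missed the threshold (adjusted p = 0.0706), which it passed with clone in the model (adjusted p = 0.00328). The groups did not overlap in either genotype.

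ZNF675, a KRAB-ZNF also named TIZ for its binding to the signalling adaptor TRAF6, fell in both genotypes. It measured 30.8 and 22.7 CPM in WT controls and 17.6 and 17.4 CPM with miR-181c, and 17.4 and 18.8 CPM in D538G controls and 12.4 and 9.95 CPM with miR-181c. The treated libraries lay below the controls in both. The log2 fold changes were -0.62 (SE 0.142, adjusted p = 0.0165) and -0.68 (SE 0.151, adjusted p = 0.0234).

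ZNF91, the SVA repressor and the member with the most counts, had 49.6 and 42.0 CPM in WT controls and 34.2 and 30.8 CPM with miR-181c. It has 34 matches of 6 bases and none of 7 bases. Its log2 fold change was -0.50 in WT ER cells (adjusted p = 0.011) and, without passing the test, -0.26 in D538G cells, where 30.8 and 31 CPM stood against 27.1 and 23.9 CPM. ZNF43, with 20 matches of 6 bases and none of 7, fell in D538G cells, from 32.1 and 38.4 CPM to 27.6 and 23.7 CPM (log2 fold change -0.45, adjusted p = 0.0496), and gave -0.41 in WT ER cells without passing the test, a difference between genotypes that did not pass its own test either. With clone in the model both genes were called in both genotypes, ZNF91 in D538G cells with an adjusted p of 0.0268 and ZNF43 in WT ER cells with one of 0.0162.

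The remaining members that fell in WT ER cells were ZNF737 (log2 fold change -0.69), ZNF681 (-0.71), ZNF506 (-0.58), ZNF429 (-0.49), ZNF708 (-0.50), ZNF626 (-0.47) and ZNF99 (-1.08), with adjusted p between 0.00309 and 0.0458. ZNF99, named after its values were seen, had the largest fold change but a low level, at 2.66 and 2.5 CPM in the controls and 1.14 and 1.31 CPM with miR-181c. ZNF493 and ZNF431, which each have 1 coding match of 7 bases, gave log2 fold changes of -0.32 and -0.33 in WT ER cells and -0.06 and -0.42 in D538G cells, none past the test. With clone in the model ZNF431 was called in WT ER (adjusted p = 0.0146) and D538G cells (adjusted p = 0.00252), and ZNF493 in WT ER cells (adjusted p = 0.0233). The other 16 members include ZNF93, the LINE-1 repressor, at -0.20 and -0.29.

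**Figure D2:**
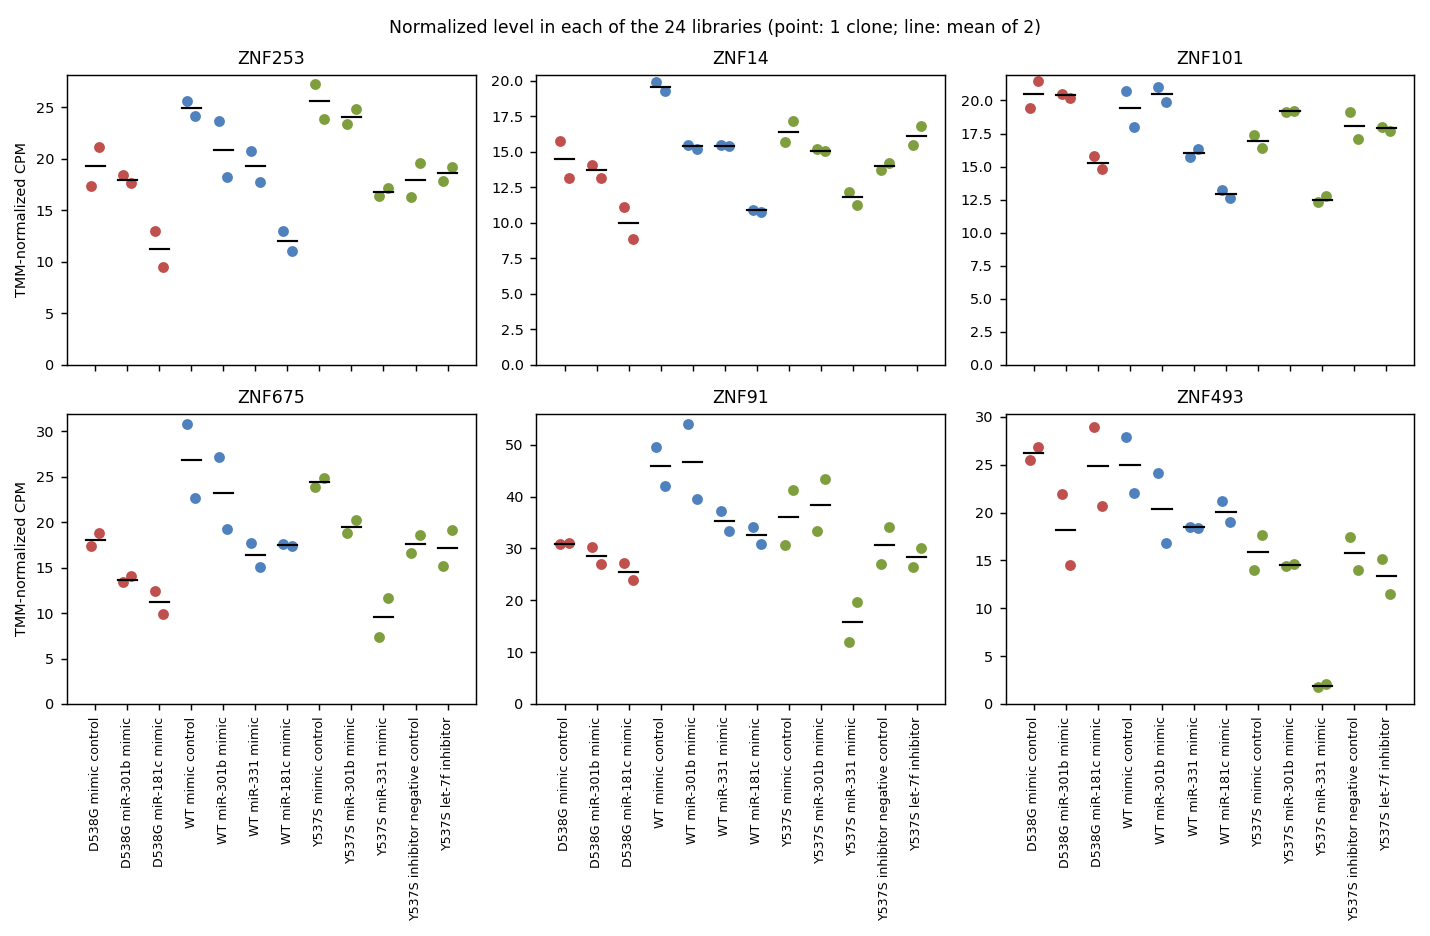
Normalized CPM (y axis) of 6 cluster genes in each of the 24 libraries, by condition (x axis). Points are the 2 clones, lines their mean, and colours the genotype (red D538G, blue WT, green Y537S); ZNF253, ZNF14 and ZNF101 are low with miR-181c in D538G and WT cells, and ZNF493 falls to 1.78 and 2.07 CPM with miR-331 in Y537S cells.

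The number of members called after miR-181c depended on clone and GC content. With clone as a term in the model, 14 members fell in D538G cells, where 13.6% of all genes were called lower. Corrected for GC, 4 members fell in WT ER cells (4.04% of all genes) and none in D538G cells (0.782% of all genes), where 4 members had an unadjusted p under 0.05 and uncorrected DESeq2 called 4. The 4 in WT ER cells were ZNF253 (log2 fold change -0.78), ZNF14 (-0.67), ZNF737 (-0.42) and ZNF101 (-0.49), and the median of the 30 members moved to -0.21, and in D538G cells to -0.18. The other 8 members lost the call in WT ER cells with GC correction, with log2 fold changes of -0.78 for ZNF99, -0.38 for ZNF681, -0.33 for ZNF675, -0.31 for ZNF506, -0.24 for ZNF708, -0.23 for ZNF91 and -0.21 for ZNF429 and ZNF626, and adjusted p between 0.061 and 0.332. In D538G cells the 3 that lost it were ZNF253 (-0.56, adjusted p = 0.166), ZNF675 (-0.48, adjusted p = 0.16) and ZNF43 (-0.25, adjusted p = 0.333). With clone and GC together, 8 members fell in WT ER cells (7.72% of all genes) and 5 in D538G cells (7.95% of all genes), the latter being ZNF253, ZNF675, ZNF43, ZNF14 and ZNF101. Leaving out a library moved the WT count from 12 to 4 (without control clone D1), and the D538G count from 3 to 0 (without control clone C2, or without miR-181c clone C2) or 6 (without miR-181c clone A5).

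The response did not differ detectably between D538G and WT ER cells. No member passed the test of the difference of the miR-181c responses, none had an unadjusted p under 0.05, and DESeq2 called none, while 0.00646% of all genes passed in either direction. With so few calls over all genes, a count of 0 says little about the members. The difference for ZNF253 was 0.30 (SE 0.228) and for ZNF14 0.34 (SE 0.207) on the log2 scale, smaller falls in D538G cells that were within 2 SE of 0.

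Members with a 7-base match in the 3′ UTR gave lower medians than those without. In WT ER cells the 11 members with a match had a median log2 fold change of -0.60, with 7 called, and the 19 without had -0.41, with 5 called. In D538G cells the medians were -0.42 and -0.36. With GC correction the WT medians were -0.42 and -0.15, and the 4 members called all had a match. The 4 members with 3 or more 7-base matches in coding sequence and 3′ UTR together had a median of -0.73 in WT ER cells, against -0.46 for the other 26, and -0.47 against -0.36 in D538G cells. The limit of 3 matches was not set in advance, and the members were not split by coding matches alone. A larger fall with coding matches therefore cannot be read from these medians. These are descriptions of small sets that share members, and the part of the sites in the change was not tested.

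miR-331 lowered members of the cluster in both genotypes that received it. In Y537S cells 21 members fell and none rose (15.8% of all genes were called lower), with a median log2 fold change of -1.08, and in WT ER cells 16 fell and none rose (10.6% of all genes), with a median of -0.42. All 30 fold changes were below 0 in both genotypes. Members that fell in both included ZNF43, at -1.12 and -0.42, ZNF91, at -1.16 and -0.35, and ZNF675, at -1.32 and -0.68. In WT ER cells, the genotype given both mimics, 16 members were called after miR-331 and 12 after miR-181c, and this order turned with GC correction, to 0 and 4. Corrected for GC, 7 members passed the test in Y537S cells (9.27% of all genes) and none in WT ER cells (2.55%), where 6 had an unadjusted p under 0.05 and uncorrected DESeq2 called 14. With clone and GC together the counts were 18 (23.1% of all genes) and 4 (7.83%), the latter against 8 after miR-181c. Of the 3 genes just named, ZNF43 in Y537S cells kept the call with GC correction (-0.63, adjusted p = 0.0229), while ZNF91 (-0.63 and -0.12) and ZNF675 (-0.77 and -0.44) lost it in both genotypes, as did ZNF43 in WT ER cells (-0.19). The WT count was 3 without control clone D1 or miR-331 clone D4 and 4 without miR-331 clone D1, and the Y537S count was 13 without miR-331 clone 1.

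ZNF493 gave the largest change of any member in any treatment. It measured 14.0 and 17.7 CPM in the Y537S control clones and 1.78 and 2.07 CPM with miR-331, where in WT ER cells it measured 27.9 and 22.1 CPM and then 18.5 and 18.4 CPM. The Y537S libraries with miR-331 held the lowest ZNF493 levels of all 24. The log2 fold change was -3.02 (SE 0.23, adjusted p = 0.00605) in Y537S cells and -0.41 (SE 0.119, adjusted p = 0.0272) in WT ER cells. In Y537S cells it stayed between -3.18 and -2.33 and past the test under all 11 alternatives. The WT call was lost with GC correction (-0.17, adjusted p = 0.361), with clone and GC together (-0.17, adjusted p = 0.222), with all WT conditions in 1 fit (-0.41, adjusted p = 0.0987), and without control clone D1 (-0.24, adjusted p = 0.221), miR-331 clone D1 (-0.42, adjusted p = 0.125) or miR-331 clone D4 (-0.40, adjusted p = 0.0981). Its transcript had no 7-base match to miR-331 in the coding sequence or the 3′ UTR. The response to miR-331 differed between the genotypes for 3 members, ZNF493, ZNF708 and ZNF43, all with the larger fall in Y537S cells. That is 10.0% of the members, not far from the 6.47% of all genes called lower in Y537S cells in this test. The same test for miR-301b called no member in D538G (0.0064% of all genes in either direction) or Y537S cells (0.00632%) against WT ER cells. By edgeR, 1 and 0 members had an unadjusted p under 0.05. These tests of the miR-331 and miR-301b responses were run without GC correction, a clone term or DESeq2, and no library was left out.

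miR-301b, the mimic tested in all 3 genotypes, moved few members. In D538G cells 3 fell (6.49% of all genes were called lower): ZNF492 at -1.76, ZNF43 at -0.47 and ZNF681 at -0.50. ZNF492 had a low level there, at 1.83 and 2.21 CPM with the control and 0.633 and 0.55 CPM with miR-301b. Its reads may also have been split or lost, as it is a near copy of ZNF98. In WT ER cells 1 fell (3.87% of all genes), ZNF506 at -0.41, and in Y537S cells none did (2.34% of all genes), although 3 had an unadjusted p under 0.05 and DESeq2 called 1. With clone in the model these counts were 12 (16.9% of all genes), 4 (14.2%) and 7 (20.0%). The median log2 fold changes were -0.32, -0.16 and -0.14, and after GC correction 0.0, 0.07 and 0.16, so the sign turned in WT ER and Y537S cells. GC correction alone ended every call, with ZNF492 at -1.39, ZNF43 at -0.16 and ZNF681 at -0.06 in D538G cells (0.909% of all genes called lower) and ZNF506 at -0.17 in WT ER cells (2.81%). With clone and GC together members were called again, all of them higher in Y537S and WT ER cells, as counted in the last section. The share of all genes called higher with these settings is not given. Those counts therefore do not show a rise particular to the members. The D538G count was 6 without control clone A5 and 0 without control clone C2 or miR-301b clone C2, and the WT count was 0 without control clone D1 or miR-301b clone D4 and 5 without miR-301b clone D1.

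The let-7f inhibitor moved no member in Y537S cells (0.0% of all genes were called lower), with no unadjusted p under 0.05 and no call by DESeq2. The median log2 fold change was -0.03. With clone in the model 1 member was called (6.88% of all genes). ZNF253 measured 16.3 and 19.6 CPM with the inhibitor control and 17.9 and 19.2 CPM with the inhibitor, which overlap.

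**Figure D3:**
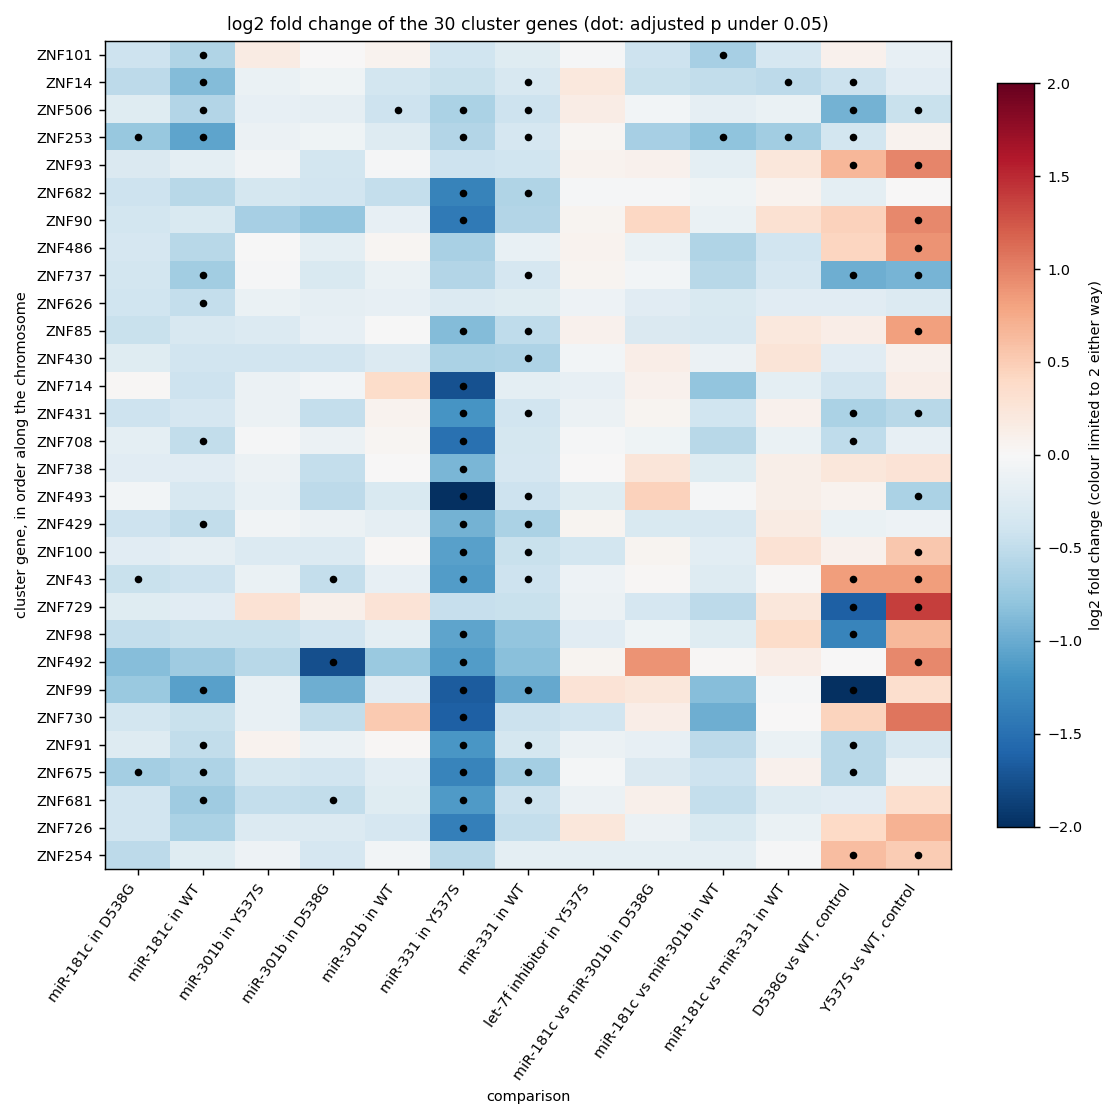
Log2 fold change (colour) of the 30 cluster genes (rows, in chromosomal order) in 13 comparisons (columns); a dot marks an adjusted p under 0.05. The miR-331 column in Y537S cells holds 21 dots and the miR-181c columns 12 (WT) and 3 (D538G), all for lower levels, while both directions occur in the 2 genotype columns.

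The mimics were also compared directly. These comparisons share the miR-181c libraries of a genotype, and the comparisons with control above share the controls, so they are not independent of one another. In WT ER cells 2 members were lower with miR-181c than with miR-301b (3.28% of all genes were called lower): ZNF253, at -0.81 (SE 0.164, adjusted p = 0.0131), and ZNF101, at -0.67 (SE 0.134, adjusted p = 0.0121). ZNF253 measured 23.7 and 18.2 CPM with miR-301b and 13 and 11.1 CPM with miR-181c, and ZNF101 measured 21.0 and 19.9 CPM against 13.2 and 12.6 CPM. With GC correction alone ZNF253, ZNF101, ZNF737, ZNF91 and ZNF14 were lower, a setting for which the share of all genes is not given. With clone in the model 7 members were lower (5.02% of all genes), and with clone and GC together 11 were (8.93%). The count of 2 became 0 without miR-301b clone D1, 8 without miR-301b clone D4, 5 without miR-181c clone D1 and 4 without miR-181c clone D4.

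Against miR-331 in WT ER cells, 2 members were lower with miR-181c (4.2% of all genes), ZNF253 at -0.69 (SE 0.134, adjusted p = 0.0147) and ZNF14 at -0.52 (SE 0.122, adjusted p = 0.033). ZNF14 measured 15.5 and 15.4 CPM with miR-331 against 10.9 and 10.8 CPM with miR-181c. The median over the 30 members was 0.02, with 14 fold changes below 0. The count was 0 without miR-331 clone D1 and 1 without miR-331 clone D4 or miR-181c clone D1.

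In D538G cells no member differed between miR-181c and miR-301b (0.848% of all genes were called lower), although 3 had an unadjusted p under 0.05 and DESeq2 called 1. The median was -0.06. With GC correction alone ZNF253 was lower with miR-181c, at -0.82 (adjusted p = 0.0413). The share of all genes called with that setting is not given. With clone in the model ZNF253, ZNF101 and ZNF14 were lower with miR-181c (7.67% of all genes), at -0.68, -0.41 and -0.45, and ZNF493 was higher, at 0.46 (10.1% of all genes were called higher). With clone and GC together 9 members were lower (8.46% of all genes). Leaving out miR-301b clone A5, miR-181c clone A5 or miR-181c clone C2 gave 1 call each.

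**Figure D4:**
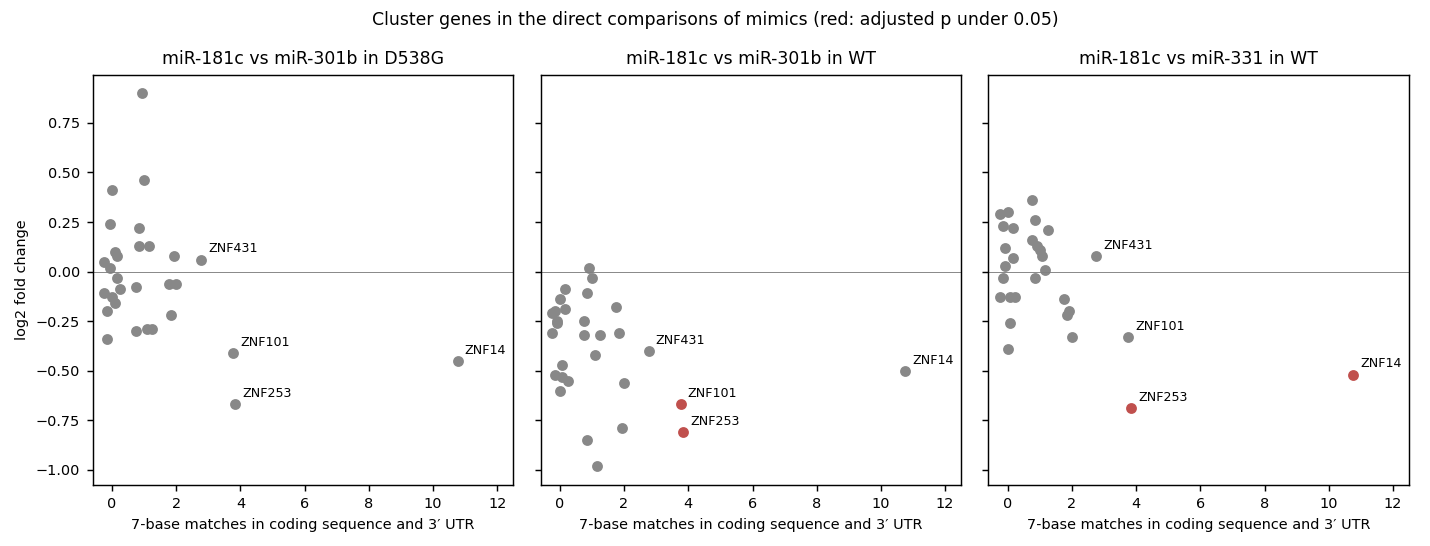
Log2 fold change of each cluster gene between mimics (y axis) against its number of 7-base miR-181c matches in coding sequence and 3′ UTR (x axis; points spread sideways to separate them). Red points passed the test. ZNF253, ZNF101 and ZNF14, with 4, 4 and 11 matches, lie between -0.33 and -0.81 in the 3 panels, and ZNF431, with 3 matches, at 0.06, -0.40 and 0.08.

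ZNF253, ZNF14 and ZNF101 were thus the members with at least 4 matches, a limit that was not set in advance. Each of these genes was below 0 in all 3 direct comparisons. So were 8 of the other 27 members, of which 5 had no 7-base match (ZNF91, ZNF254, ZNF486, ZNF708 and ZNF726) and 3 had 2 (ZNF506, ZNF626 and ZNF737), while ZNF431, with 3 matches, was not. Members without any 7-base match had medians of -0.03 against miR-301b in D538G cells and -0.26 against miR-301b in WT ER cells. Against miR-331 in WT ER cells their median was 0.03. Medians of all members with a match are not given beside these, so they show no contrast by site.

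**Figure D5:**
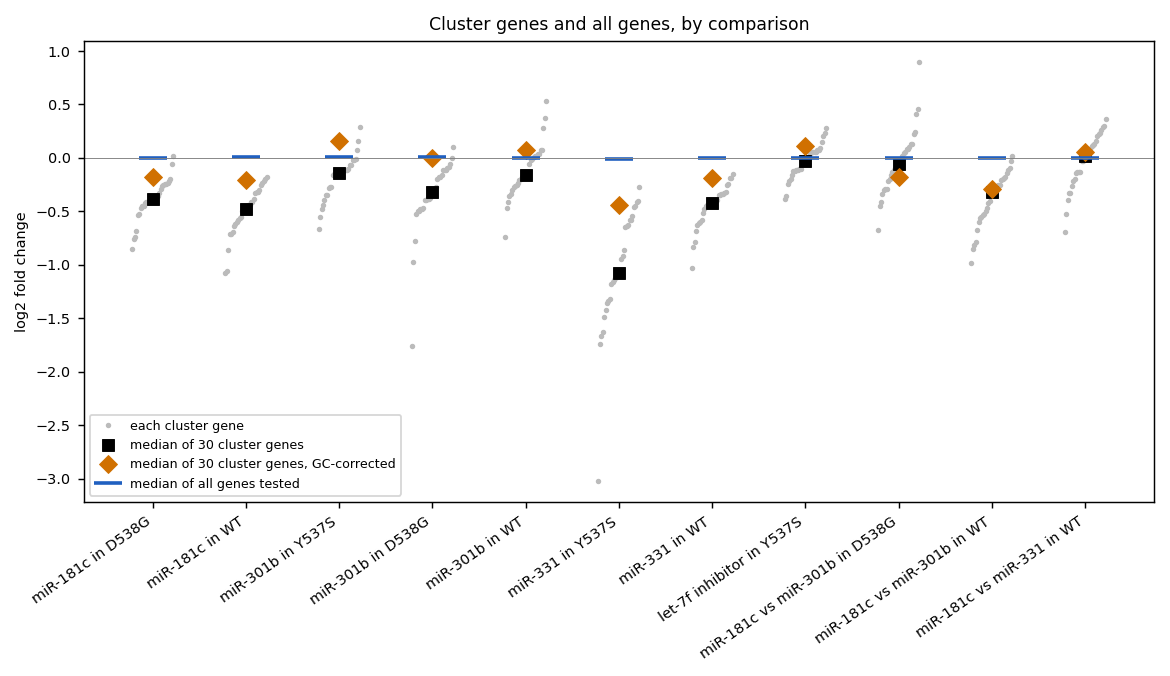
Log2 fold change (y axis) of the cluster genes in the 11 treatment comparisons (x axis). Grey points are the 30 genes, squares their median, diamonds the median after GC correction and blue bars the median of all genes; after miR-331 in Y537S cells the median goes from -1.08 to -0.44 with the correction, and after miR-181c in WT cells from -0.48 to -0.21.

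The genotypes differed within the cluster in both directions. With the mimic negative control, 3 members were higher in D538G than in WT ER cells and 11 lower (20.4% of all genes were called higher and 18.5% lower). In Y537S cells 9 were higher than in WT ER cells and 4 lower (16.3% and 12.7% of all genes). Both comparisons use the same WT libraries. ZNF43 was higher in both, at 21.9 and 17.7 CPM in WT ER, 32.1 and 38.4 CPM in D538G and 35.9 and 33.4 CPM in Y537S cells, a log2 fold change of 0.84 in each. ZNF93 was higher by 0.67 and 0.97 and ZNF254 by 0.62 and 0.50.

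ZNF506 and ZNF737 were lower in both mutants. ZNF506 measured 35.5 and 33.8 CPM in WT ER, 17.8 and 17.9 CPM in D538G and 23.3 and 26.4 CPM in Y537S cells. The log2 fold changes were -0.95 and -0.45, and those of ZNF737 -0.98 and -0.93. ZNF431 was also lower in both, at -0.63 and -0.55. ZNF729, named after its values were seen, had opposite signs: 2.49 and 2.08 CPM in WT ER cells, 0.684 and 0.775 CPM in D538G cells (log2 fold change -1.64) and 5.3 and 6.47 CPM in Y537S cells (1.39). Without WT clone D1 the D538G count of 14 was 8, and the Y537S count of 13 was 5 without WT clone D1 and 6 without D4.

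The protein partners through which KRAB-ZNFs silence their targets were looked at beside the cluster. Of 18 genes of the silencing machinery, 2 rose and none fell after miR-181c in each genotype, where 5.58% (D538G) and 8.1% (WT ER) of all genes were called higher. They were TRIM28, the corepressor, by 0.32 in both, and UHRF1, a reader of hemimethylated DNA, by 0.31 in D538G and 0.68 in WT ER cells. After miR-331, 4 of the 18 fell and 1 rose in Y537S cells (15.8% of all genes called lower and 17.2% higher), and 5 fell and 1 rose in WT ER cells (10.6% and 14.2%). The gene that rose was again TRIM28, by 0.91 and 0.42, whereas after miR-301b its log2 fold changes of 0.23 to 0.25 did not pass the test. CBX3, a heterochromatin protein, fell after miR-301b in Y537S (-0.46) and D538G cells (-0.47), and SMARCAD1, a chromatin remodeller, in D538G cells (-0.39), against 2.34% and 6.49% of all genes called lower. GC correction left no call among the 18 after miR-181c in D538G cells, after miR-301b in any genotype or after miR-331 in WT ER cells. Counts this small among 18 genes do not show whether the list differs from all genes, which was not tested.

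Other zinc-finger genes fell with miR-181c as well. Of 35 genes of the 19p13 cluster that were tested, 19 fell in WT ER cells (54.3% against 8.28% of all genes, median log2 fold change -0.53) and 6 in D538G cells (17.1% against 3.95%, median -0.45), and none rose. Of the other ZNF genes, 82 of 380 fell (21.6%) and 14 rose (3.68%, against 8.1% of all genes) in WT ER cells (median -0.19). In D538G cells 23 of 376 fell (6.12%, not far from 3.95%) and 9 rose (2.39% against 5.58%), with a median of -0.12. With GC correction the 19p13 genes that fell numbered 14 and 2, and the other ZNF genes 35 and 2, where 4.04% and 0.782% of all genes were called lower. After miR-331 in Y537S cells the medians were -1.08 for the 19p12 members, -0.48 for the 19p13 genes and -0.32 for the other ZNF genes. The 19p12 members were lowest of the 3 sets there, and in WT ER cells at -0.42 against -0.30 and -0.19, whereas after miR-181c the 19p13 genes were lower still. The medians in this paragraph are without GC correction. Base composition and shared sequence were not compared between these sets, and whether the sets differ was not tested.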

How the data were processed

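T-47D RNA was sequenced on an Illumina NovaSeq. The authors aligned reads to hg19 with HISAT2 and made the deposited raw counts per gene with featureCounts on UCSC Known Genes, and their strand and multi-mapping settings are not given in the sources used here. A gene's reads can therefore include those of near copies or antisense neighbours. Every count column was used.

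Counts were tested here with edgeR 4.0.16 in R 4.3.3 (filterByExpr, TMM, quasi-likelihood F-test, Benjamini-Hochberg over all genes), each comparison on its own libraries without a clone term. The fit was checked on counts simulated for a single comparison, miR-181c in D538G cells. The planted changes were larger than most member changes after miR-181c, and the spread between libraries was capped. Comparisons of genotypes and tests of a difference of responses were not simulated. Levels are TMM-normalized CPM over all 24 libraries. SE is the log2 fold change divided by the square root of F. GC correction subtracted a lowess trend (span 0.3) of log2 CPM on transcript GC. Clone names or numbers pair libraries of a genotype: they come from the same clone, and clone deviations correlated at 0.11 to 0.47. DESeq2 1.42.0 was an alternative. Seed matches came from GENCODE v44 transcripts lifted to GRCh37, matched by symbol for 22494 genes and older symbol for 1358 (2512 unmatched). The canonical transcripts may differ from those expressed.

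Members and lists were chosen with earlier results of these data known. Members named are those called after miR-181c (at most 12, by p), the 6 with most coding 7-base matches (ties by 6-base matches, decided after counting) and the 4 with most counts. An exact permutation test of 2 against 2 libraries cannot go below p = 0.333.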

Additional observations from a re-analysis of the deposited data

Results flagged for a closer look

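For 3 members the response to miR-331 differed between Y537S and WT ER cells in a test of the difference itself (edgeR, interaction term added after the data were seen, adjusted over all genes). ZNF493 fell by 2.62 more on the log2 scale in Y537S cells (-2.62, SE 0.249, adjusted p = 0.000762), ZNF708 by 1.15 more (-1.15, SE 0.215, adjusted p = 0.0163) and ZNF43 by 0.71 more (-0.71, SE 0.186, adjusted p = 0.0463). These 3 are 10.0% of the members, not far from the 6.47% of all genes called lower in this test. Over the 30 members the median difference was -0.56, against -0.03 over all genes. ZNF708 measured 16.7 and 20.5 CPM in the Y537S control and 6.36 and 6.66 CPM with miR-331, and 23.3 and 19 CPM against 16.4 and 16.2 CPM in WT ER cells. The corresponding tests for miR-301b called no member in D538G or in Y537S against WT ER cells, with 1 and 0 members at an unadjusted p under 0.05. They called 0.0064% and 0.00632% of all genes in either direction, so a count of 0 among the members says little about them. The tests of this section, for miR-331 and for miR-301b, were run without GC correction, a clone term or DESeq2. No library was left out in them.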

How the results depend on the processing

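Counts of members called are those of the report unless given here. The share of all genes called moved with these settings too. For miR-301b in Y537S cells, 2.34% of all genes were called lower without a clone term and 20.0% with one. Where that share is not given, a count does not show whether the members differ from all genes. Without a filter on low counts, miR-181c in D538G gave 9, miR-301b in D538G 7 and in WT 2, and miR-181c against miR-301b 2 in D538G and 10 in WT. GC correction gave 0 and 4 for miR-181c in D538G and WT, 0 and 0 for miR-301b in D538G and WT, 7 and 0 for miR-331 in Y537S and WT, and 1 and 5 for miR-181c against miR-301b in D538G and WT. With clone as a replicate block the counts were 14 for miR-181c in D538G, 7, 12 and 4 for miR-301b in Y537S, D538G and WT, 1 for the let-7f inhibitor, and 4 and 7 for miR-181c against miR-301b in D538G and WT, and no other count moved by over 1.5 times with the block. Block and GC correction together gave 5 for miR-181c in D538G, 6 (all higher), 1 and 2 (both higher) for miR-301b in Y537S, D538G and WT, 4 for miR-331 in WT, 1 (higher) for the let-7f inhibitor, 9 and 11 for miR-181c against miR-301b in D538G and WT, and 5 (4 lower and 1 higher) for miR-181c against miR-331. DESeq2 gave 1 and 5 for miR-301b in Y537S and D538G and 1 and 4 for miR-181c against miR-301b in D538G and WT. All conditions of the WT cells in 1 fit gave 6 for miR-331 and 5 for miR-181c against miR-301b. DESeq2's size factors in edgeR moved no count by over 1.5 times. Leaving out 1 library gave 0 to 6 for miR-181c in D538G, 4 to 12 in WT, 0 to 6 and 0 to 5 for miR-301b in D538G and WT, 13 to 21 and 3 to 15 for miR-331 in Y537S and WT, 0 to 1 and 0 to 8 for miR-181c against miR-301b in D538G and WT, 0 to 2 for miR-181c against miR-331, 8 to 13 for D538G and 5 to 15 for Y537S against WT, where a lone library was assumed to vary like the others. Members with a coding match numbered 3 at 8 bases and 30 at 6 bases. ZNF493 after miR-181c turned from negative to 0.15 (GC correction) and 0.14 (block and GC) in D538G, ranged from -0.33 to 0.16 there with 1 library left out (0.16 without miR-181c clone C2), and turned to 0.00 under both corrections in WT. The causes were not tested. With 2 clones a genotype, small changes were hard to separate from clone differences, and low members such as ZNF99 and ZNF714 rest on few counts.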
